A study of Homo sapiens with 24 samples.

Results

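The DNA damage checkpoint genes described here are ATM, ATR, CHEK1, CHEK2, TOPBP1, CLSPN, WEE1, CDC25A, RAD17 and TP53BP1. They were chosen by name, as the kinases of the checkpoint with their mediators and effectors, and are 10 of the 63299 genes in the deposited count table. All 10 were found by their Ensembl identifier and passed the filter on low counts. RNA was sequenced in A2780, a platinum-sensitive human ovarian cancer cell line, and in A2780cis, its isogenic platinum-resistant partner, which was cultured with cisplatin at intervals to keep the resistance. Cells received 1 µM 5-FdU-ECyd, a duplex of the nucleoside analogs 5-FdU and ECyd, or fresh growth medium alone as control, and were harvested after 6 h or 12 h. Each of the 8 groups of line, treatment and time holds 3 libraries. The study describes them as biological triplicates, and the labels do not say whether they came from separate cultures. If they did not, p-values measure technical spread.

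The checkpoint is a relay from damaged DNA to the cell cycle. ATR, brought to single-stranded DNA at stalled replication forks, is switched on by TOPBP1 after RAD17 has loaded the 9-1-1 clamp, and passes the signal to CHEK1 through the adaptor claspin (CLSPN). ATM responds to DNA breaks and activates CHEK2, while TP53BP1 (53BP1) gathers on the chromatin around a break. CHEK1 and CHEK2 restrain the phosphatase CDC25A, which removes the inhibitory phosphate from cyclin-dependent kinases, and WEE1 is the kinase that puts that phosphate on. Since these proteins act mainly through phosphorylation and turnover, a transcript level does not describe the activity of the pathway. It is a level relative to the other transcripts of the library and not an amount per cell.

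Stretches of promoter are shown for the members whose RefSeq promoter held an E2F-type octamer. They are shown because CLSPN and CDC25A, which hold one, rose in A2780 at 6 h. That of ATR is shown as well, which fell in every comparison and held none. CHEK1 and RAD17, which are not shown, also fell in every comparison and held none, and TOPBP1 fell in each with an octamer. The stretches run from 100 bases before to 20 bases after the annotated start, in GRCh38.p14, all from the minus strand, with the octamer in capitals. They lie at chr1:35769959-35770078 (CLSPN), chr3:48188398-48188517 (CDC25A), chr3:133661922-133662041 (TOPBP1) and chr3:142578714-142578833 (ATR).
CLSPN: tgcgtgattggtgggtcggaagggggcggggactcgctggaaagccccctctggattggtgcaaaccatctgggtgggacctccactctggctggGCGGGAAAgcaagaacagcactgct
CDC25A: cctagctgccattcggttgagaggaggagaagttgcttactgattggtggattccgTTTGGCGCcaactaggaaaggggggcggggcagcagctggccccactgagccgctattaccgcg
TOPBP1: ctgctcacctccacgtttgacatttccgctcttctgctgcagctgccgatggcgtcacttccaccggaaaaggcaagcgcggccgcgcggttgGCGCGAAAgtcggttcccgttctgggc
ATR: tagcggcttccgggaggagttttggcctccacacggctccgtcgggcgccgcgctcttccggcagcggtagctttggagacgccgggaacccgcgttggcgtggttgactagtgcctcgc
The octamers searched on both strands were TTTCCCGC, TTTGGCGC, TTTCGCGC and TTTGCCGC. CLSPN held TTTCCCGC from 5 bases before the start and TOPBP1 held TTTCGCGC from 7 bases before it, in both cases on the reverse strand, and CDC25A held TTTGGCGC from 44 bases before the start. Of the 9 members with an entry in the promoter table, 3 held at least 1 of these octamers, against 3.31% of all 35116 promoters of 300 bases. The pentamer CCAAT was present in 7 of the 9, against 34.6% of all promoters, and the hexamer TTTGAA in 2 of the 9, against 15.2%. A member was counted if any of its promoters held the match, whereas the percentages are per promoter. ATM, CHEK1 and RAD17 had more than 1 promoter, so the shares are not directly comparable. A match of letters is a description and not a site of binding. CLSPN and CDC25A rose after 6 h in A2780 while TOPBP1, with the same kind of octamer, fell. In A2780cis CLSPN fell at 12 h and CDC25A fell at both times. Whether the octamers have a part in these changes was not tested.

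Between 11077368 and 21901406 reads were counted per library, and each member had at least 393 counts in every library. Levels are given in CPM, the counts scaled to the library total after TMM normalization, and changes as log2 FC, the log2 of the ratio of treated cells to the controls of their line and time. A gene is said to rise or fall where its adjusted p was at most 0.05 among the 20240 genes tested. Rises and falls are thus relative to the other transcripts, and a change in the total RNA of a cell would not be seen. The share of counts from mitochondrial genes was between 5.10% and 6.54% in the untreated libraries, between 6.95% and 7.61% after 6 h of treatment and between 8.32% and 9.94% after 12 h, and its part in the results was not tested. PTPRC, CD3E, PECAM1, CDH5 and ALB, markers of other cell types, had at most 3 counts in any library. Of the epithelial and ovarian markers PAX8, WT1, MUC16, CDH1 and KRT19 had at most 6 counts, EPCAM reached 1.96 CPM, and KRT18 was at 0.718 to 3.27 CPM in A2780 and at 20.6 to 28.4 CPM in A2780cis. VIM, a mesenchymal marker, lay between 788 and 2770 CPM, and CDH2 between 13.4 and 55.6 CPM in A2780 and between 1.21 and 7.42 CPM in A2780cis.

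After 12 h of 5-FdU-ECyd, transcripts of 7 of the 10 checkpoint genes fell in A2780 and of all 10 in A2780cis. In A2780 after 6 h, 4 of the 10 members fell (ATR, RAD17, CHEK1 and TOPBP1), where 13.4% of all tested genes fell, and CLSPN and CDC25A rose, where 16% rose. The 4 became 2 without the first or second untreated or the first treated library, with library size alone or without the filter on low counts, and 5 in DESeq2. After 12 h in A2780, 7 members fell against 26.1% of all genes, and none rose against 28.6%. In A2780cis 7 members fell after 6 h, against 16.3% of all genes, and 10 of 10 fell after 12 h, against 28.9%. No member rose in A2780cis at either time, where 14.4% and 31% of all genes did. In these 3 comparisons without a rise in edgeR, 0 members were higher at an unadjusted p under 0.05 and 0 rose in DESeq2. The median log2 FC of the members was -0.22 and -0.41 after 6 h and 12 h in A2780 and -0.35 and -0.52 in A2780cis, while that of all tested genes was between 0.00 and 0.04 in the same comparisons. Fold changes were small: the largest was that of TOPBP1 in A2780cis after 12 h, at 0.481 times the control. With library size as the only scale, the median of all genes at 12 h became 0.24 in A2780 and 0.15 in A2780cis. On that scale 4 members fell in A2780 at 12 h (ATR, CHEK1, TOPBP1 and TP53BP1) and CLSPN and CDC25A rose, while all 10 members fell in A2780cis.

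**Figure D1:**
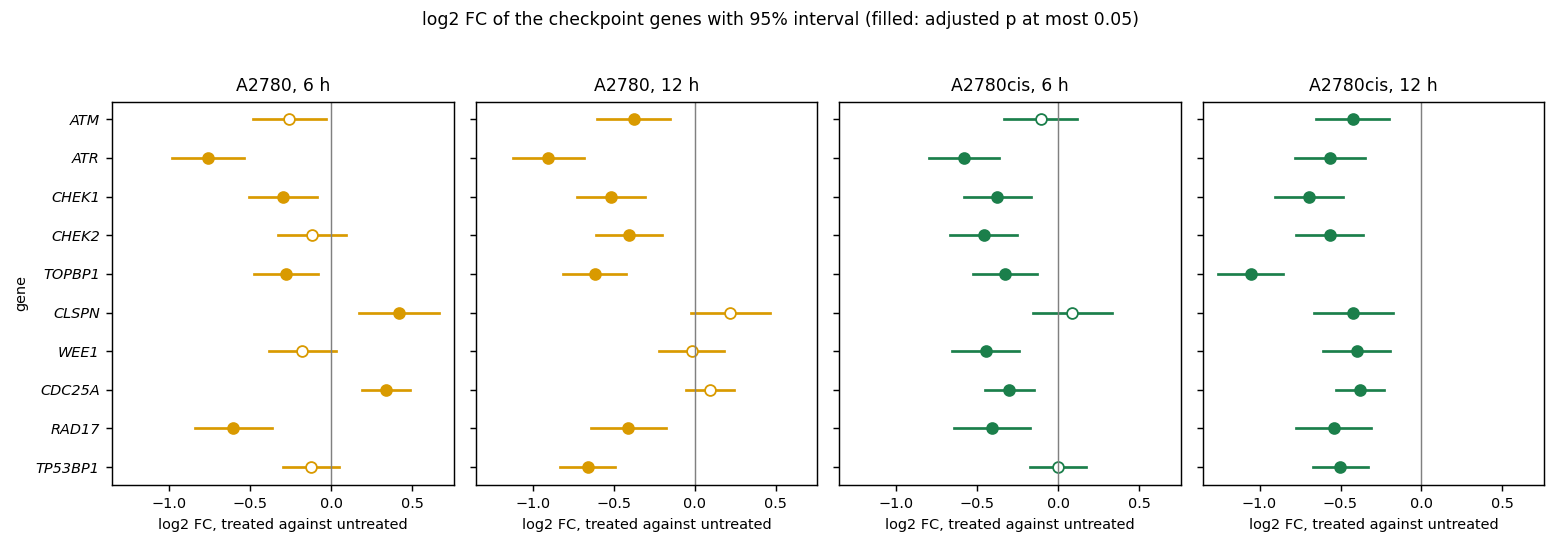
The log2 FC of each checkpoint gene (rows) after treatment against untreated cells is plotted for the 4 comparisons of line and time, with its 95% interval as a line and a filled point where the adjusted p was at most 0.05. After 12 h in A2780cis all 10 points are filled and to the left of 0, whereas CLSPN and CDC25A lie to the right of 0 in A2780 at both times.

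**Figure D2:**
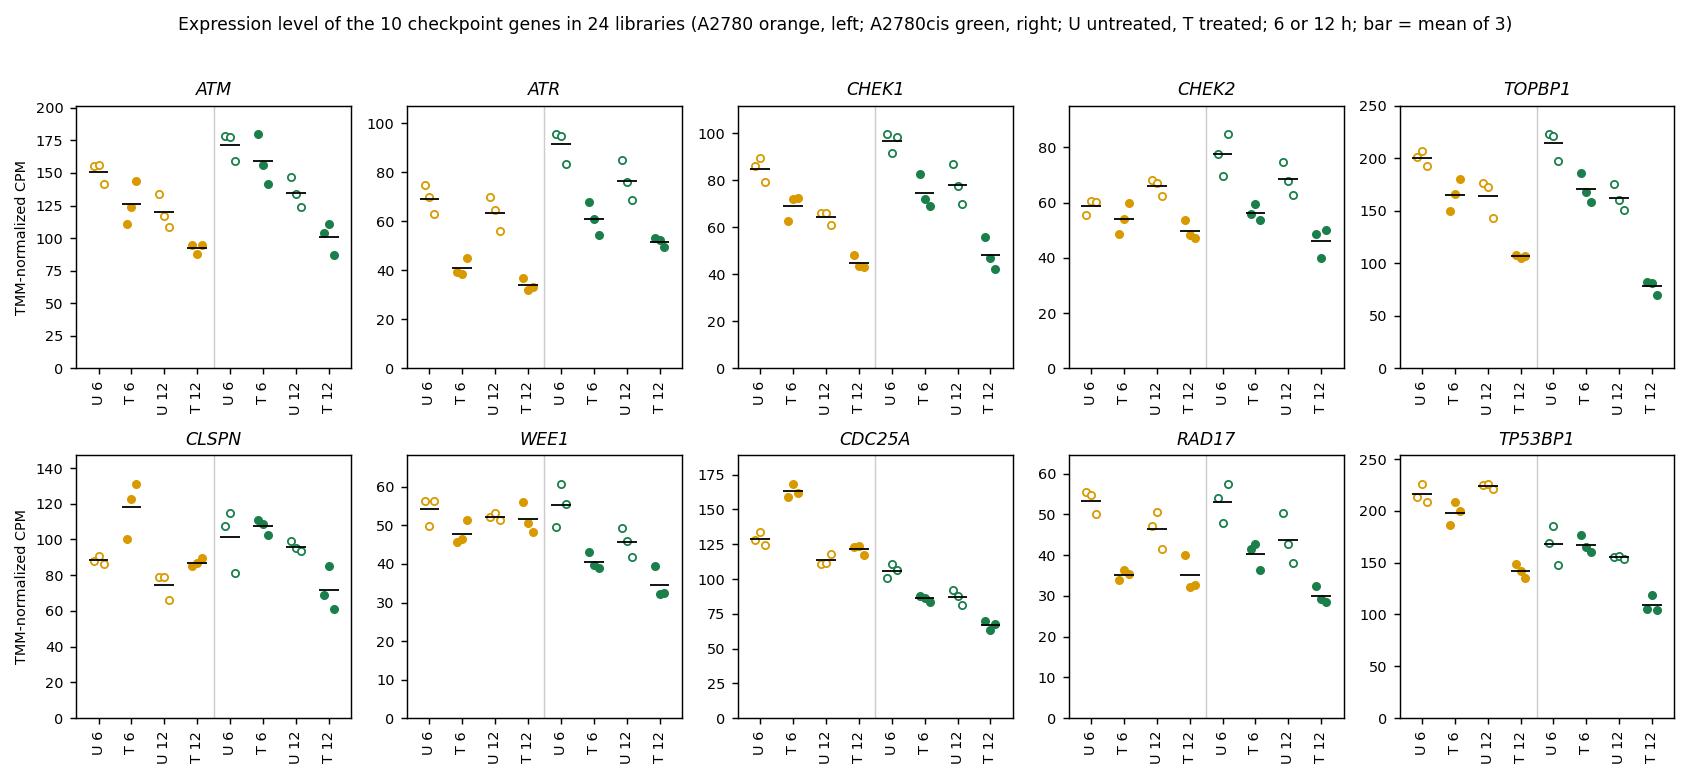
TMM-normalized CPM (vertical axis, from 0) of each gene in the 24 libraries, with open circles for untreated and filled circles for treated cells, A2780 in orange and A2780cis in green, and a bar at the mean of 3 libraries. ATR falls in every line and time, and at 6 h the treated libraries of CDC25A lie above the controls in A2780 and below them in A2780cis, as those of CLSPN do at 12 h.

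ATR (ENSG00000175054.14, chromosome 3 from 142449007 to 142578733 on the minus strand, GRCh38), the apical kinase of replication stress, fell in all 4 comparisons. In A2780 it was at 74.8, 70.02 and 63.1 CPM in the untreated libraries of 6 h and at 39.1, 38.5 and 45.2 CPM in the treated ones. At 12 h the untreated A2780 libraries held 70.1, 64.6 and 55.9 CPM and the treated ones 36.8, 31.96 and 33.3 CPM. No treated A2780 library reached the lowest control of its time. The log2 FC was -0.76 at 6 h (SE 0.11, edgeR adjusted p = 9.05e-06) and -0.90 at 12 h (SE 0.11, edgeR adjusted p = 9.13e-08), the lowest value of any member in A2780 at both times. In A2780cis ATR went from 95.7, 94.9 and 83.5 to 67.8, 61.04 and 54.4 CPM at 6 h and from 84.9, 76.2 and 68.8 to 53.03, 52.5 and 49.7 CPM at 12 h, again without overlap. Its log2 FC there was -0.58 and -0.57, and the difference between the lines did not pass the test at either time (at 12 h 0.34, 95% interval 0.03 to 0.64, edgeR adjusted p = 0.104). In the order of levels the 4 untreated groups came first, each overlapping with the next. Treated A2780cis cells of 6 h overlapped with untreated A2780 cells of 12 h, and below them came treated A2780cis cells of 12 h and treated A2780 cells of 6 h and 12 h, each apart from the next. The gene overlaps a pseudogene, EIF2AK1P1, on the opposite strand over 7.52% of its exonic bases, and that pseudogene held at most 56 counts in any library.

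ATM (ENSG00000149311.17, chromosome 11 from 108223044 to 108369102), the kinase of the break response, fell at 12 h in both lines. It had 119.8 ± 13.01 CPM (SD, n = 3) in untreated and 92.3 ± 4.09 CPM in treated A2780 cells of 12 h (log2 FC -0.38, edgeR adjusted p = 0.00513), and 135 ± 11.3 against 101 ± 12.3 CPM in A2780cis (log2 FC -0.42, edgeR adjusted p = 0.00157). At 6 h its log2 FC was -0.26 in A2780 (adjusted p = 0.0785, edgeR) and -0.11 in A2780cis (adjusted p = 0.489, edgeR). In A2780 the value of 6 h passed in DESeq2 (-0.29, adjusted p = 0.0396), with its size factors in edgeR (adjusted p = 0.0426) and in an edgeR fit of the compared libraries alone (adjusted p = 0.0467), and that of 12 h did not pass with library size alone (-0.15, edgeR adjusted p = 0.243). The A2780 value at 6 h came to -0.36 and passed the test (edgeR adjusted p = 0.0245) without the third treated library, which at 144 CPM lay above the lowest control. The growth of the decrease from 6 h to 12 h was not past the threshold in either line (-0.12 in A2780 and -0.32 in A2780cis on the log2 scale). ATM was also among the members that fell between the untreated cells of 6 h and of 12 h, and treated cells of 12 h had the lowest levels of all groups in A2780 and in A2780cis, with overlap between neighbouring groups throughout. NPAT, whose start lies 406 bases from that of ATM on the other strand, had a log2 FC of -0.53, 0.19, -0.24 and -0.44 in A2780 at 6 h and 12 h and A2780cis at 6 h and 12 h.

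RAD17 (ENSG00000152942.18, chromosome 5 from 69369293 to 69414801), which loads the 9-1-1 clamp, fell in all 4 comparisons. In A2780 it was at 55.4, 54.7 and 50.01 CPM in the controls of 6 h and at 33.9, 36.4 and 35.3 CPM after treatment, with no overlap (log2 FC -0.60, SE 0.12, edgeR adjusted p = 0.00032). After 12 h it was at 35.03 ± 4.44 CPM (SD, n = 3), against 46.4 ± 4.67 in the controls (log2 FC -0.41). In A2780cis the log2 FC was -0.41 at 6 h and -0.54 at 12 h. The value of 6 h came to -0.34 (edgeR adjusted p = 0.061) without the third treated A2780cis library. RAD17 shares 9.14% of its exonic bases with TAF9 and AK6 on the opposite strand. In A2780 at 6 h and 12 h the log2 FC was -0.25 and -0.17 for AK6 and -0.29 and 0.0025 for TAF9. In A2780cis it was -0.35 and -0.62 for AK6, which fell at both times, and -0.33 and -0.05 for TAF9. Without strand in the counting, the reads of the shared bases could not be told apart, and their part in the RAD17 values was not tested.

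TOPBP1 (ENSG00000163781.12, chromosome 3 from 133598175 to 133662380), the activator of ATR, had the steepest decrease of the members. Untreated A2780cis libraries of 12 h held 175, 160.4 and 151 CPM and treated ones 82.2, 81.8 and 70.2 CPM. The highest treated library was thus well below the lowest control. The log2 FC was -1.05 (SE 0.10, edgeR adjusted p = 8.11e-10). In A2780 at 12 h the controls were at 176, 173 and 143 CPM and the treated libraries at 108, 105 and 108 CPM (log2 FC -0.62, edgeR adjusted p = 5.3e-06). At 6 h the log2 FC was -0.28 in A2780 and -0.33 in A2780cis. These calls of 6 h were the weakest of the gene. In A2780 the adjusted p was between 0.0699 and 0.167 (edgeR) without the first or the second untreated or the first or the second treated library, and in A2780cis it was 0.0703 without the third treated library. With library size alone neither passed at 6 h (edgeR adjusted p = 0.0825 in A2780 and 0.0541 in A2780cis). Without the filter on low counts the A2780 value did not pass (edgeR adjusted p = 0.0842). TOPBP1 shares no exonic base with another annotated gene, and all its counts were whole numbers.

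CLSPN (ENSG00000092853.13, chromosome 1 from 35720218 to 35769978), the adaptor between ATR and CHEK1, rose in A2780 at 6 h and fell in A2780cis at 12 h. In A2780 at 6 h it went from 88.2, 90.8 and 86.5 CPM to 100.2, 123 and 131 CPM, with every treated library above the controls (log2 FC 0.42, SE 0.12, edgeR adjusted p = 0.0101). The value was 0.33 (edgeR adjusted p = 0.0595) without the third treated library. At 12 h the A2780 libraries were at 79.2, 78.9 and 66.1 CPM without and 84.9, 86.7 and 89.4 CPM with treatment, which again do not overlap, but the log2 FC of 0.22 did not pass the threshold (edgeR adjusted p = 0.118). In A2780cis at 6 h the controls of 107, 115 and 81.1 CPM enclosed the treated libraries at 111, 109 and 103 CPM (log2 FC 0.09, 95% interval -0.16 to 0.33). At 12 h CLSPN fell there, from 99.2, 95.3 and 93.5 to 68.7, 85.2 and 61.1 CPM (log2 FC -0.42, SE 0.12, edgeR adjusted p = 0.00349). A long noncoding RNA, ENSG00000232335, overlaps 2.92% of its exonic bases on the opposite strand and had a log2 FC of 0.53, 0.55, 0.10 and -0.15 in A2780 at 6 h and 12 h and A2780cis at 6 h and 12 h.

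TP53BP1 (ENSG00000067369.13, chromosome 15 from 43403061 to 43510728), the chromatin mediator of breaks, fell at 12 h in both lines. At 6 h its log2 FC was -0.12 in A2780 and 0.00 in A2780cis, neither past the threshold (95% interval -0.29 to 0.05 and -0.17 to 0.17). The treated A2780 libraries of 6 h, at 186.8, 208.1 and 199.8 CPM, lay just below the controls at 213.1, 226.3 and 208.2 CPM. At 12 h the untreated A2780 libraries held 225, 226 and 222 CPM and the treated ones 148, 142 and 135 CPM. In A2780cis these were 156, 156 and 154 and 105, 119 and 105 CPM. Both decreases left a wide gap between the groups (log2 FC -0.66, edgeR adjusted p = 2.42e-07, and -0.50, edgeR adjusted p = 1.21e-05). TP53BP1 shares 28.8% of its exonic bases with TUBGCP4 on the opposite strand, whose log2 FC at 12 h was -0.35 (A2780) and -0.50 (A2780cis). The strand setting of the counting was not found in the sources used here, and without strand the reads of the shared bases could not be told apart. MAP1A has its start 230 bases from that of TP53BP1, on the other strand. The log2 FC of MAP1A was 0.67 and 0.26 in A2780 at 6 h and 12 h and -0.06 and -1.02 in A2780cis.

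CHEK1 (ENSG00000149554.12, chromosome 11 from 125625163 to 125676255), the effector kinase of ATR, fell in all 4 comparisons. At 12 h A2780 libraries had 65.9, 66.1 and 60.7 CPM without and 48.2, 43.4 and 43.2 CPM with treatment (log2 FC -0.52, SE 0.10, edgeR adjusted p = 0.000128). A2780cis libraries of 12 h had 86.7, 77.4 and 70.01 and 55.6, 46.9 and 42.3 CPM (log2 FC -0.69, SE 0.10, edgeR adjusted p = 2e-06). No treated library of 12 h reached its controls. At 6 h the log2 FC was -0.30 in A2780 and -0.37 in A2780cis. The former came to an adjusted p of 0.0896 and 0.108 (edgeR) without the first or the second control, and of 0.161 without the first treated library.

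CHEK2 (ENSG00000183765.20, chromosome 22 from 28687743 to 28742422), the effector kinase of ATM, fell at both times in A2780cis and at 12 h in A2780. A2780cis held 77.4 ± 7.55 CPM (SD, n = 3) without and 56.4 ± 2.78 CPM with treatment at 6 h (log2 FC -0.46, edgeR adjusted p = 0.00111), and 68.5 ± 5.93 and 46.3 ± 5.44 CPM at 12 h (log2 FC -0.57). A2780 held 65.9 ± 3.200 and 49.8 ± 3.58 CPM at 12 h (log2 FC -0.41, edgeR adjusted p = 0.00127). At 6 h the A2780 value was -0.12 (95% interval -0.33 to 0.09), and its difference from A2780cis was not past the threshold (edgeR adjusted p = 0.221). Counts of CHEK2 were not whole numbers in 23 of the 24 libraries. Such counts may come from reads of several alignments or from reads that overlap several genes, and the level of CHEK2 is uncertain to that extent. They occurred also for RAD17 (13 libraries), TP53BP1 (12), ATM (9), ATR (4), CHEK1 and CLSPN (3 each) and WEE1 (2). HSCB overlaps 6.52% of the exonic bases of CHEK2 on the opposite strand. Its log2 FC was -0.10 and -0.22 in A2780 at 6 h and 12 h and -0.21 and 0.28 in A2780cis. None of these values of HSCB passed the threshold.

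CDC25A (ENSG00000164045.11, chromosome 3 from 48157146 to 48188417), the phosphatase that the checkpoint kinases restrain, separated the lines at both times. Untreated A2780 libraries of 6 h held 128, 134 and 124 CPM and treated ones 159, 169 and 162 CPM (log2 FC 0.34, SE 0.07, edgeR adjusted p = 0.000874). Untreated A2780cis libraries of 6 h held 100.4, 111 and 107 CPM and treated ones 88.02, 86.3 and 83.7 CPM (log2 FC -0.30, SE 0.07, edgeR adjusted p = 0.00261). CDC25A thus rose in A2780 and fell in A2780cis, and the groups overlapped in neither line. The A2780cis value was not past the threshold without the filter on low counts (-0.28, edgeR adjusted p = 0.0815). At 12 h A2780 libraries were at 111, 112 and 118 CPM without and 123, 124 and 117 CPM with treatment, which overlap (log2 FC 0.10, edgeR adjusted p = 0.269). A2780cis libraries of 12 h fell from 92.03, 87.9 and 81.02 to 69.5, 63.3 and 67.8 CPM (log2 FC -0.38, edgeR adjusted p = 7.16e-05). Treated A2780 cells of 6 h had the highest level of the 8 groups and treated A2780cis cells of 12 h the lowest, and both stood apart from the next group in order.

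WEE1 (ENSG00000166483.10, chromosome 11 from 9573670 to 9593457), the kinase opposed to CDC25A, fell in A2780cis. There it went from 49.6, 60.9 and 55.5 to 43.1, 39.8 and 38.9 CPM at 6 h (log2 FC -0.45, SE 0.10, edgeR adjusted p = 0.00144) and from 49.2, 46.1 and 41.8 to 39.4, 32.2 and 32.4 CPM at 12 h (log2 FC -0.40, edgeR adjusted p = 0.00125). In A2780 the log2 FC was -0.18 at 6 h (95% interval -0.39 to 0.03) and -0.02 at 12 h (95% interval -0.22 to 0.18), and neither passed the test. The levels of the treated and untreated A2780 libraries of 12 h, 55.98, 50.6 and 48.3 against 52.1, 53.2 and 51.5 CPM, overlapped.

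The log2 ratio of 2 genes in the same library does not depend on how libraries are scaled. The ratio of ATR to ATM was lower after treatment by a mean of 0.41 over the 4 pairs of groups (-0.41 on the log2 scale, exact permutation test within line and time, two-sided, p = 3.75e-05, adjusted p = 0.000112 over 3 ratios). It went from -1.13 ± 0.0635 to -1.62 ± 0.101 (SD, n = 3) in A2780 at 6 h and from -0.915 ± 0.0496 to -1.44 ± 0.0751 at 12 h. In A2780cis it went from -0.910 ± 0.0157 to -1.38 ± 0.0274 at 6 h, and the smallest shift was that of 12 h, from -0.819 ± 0.0315 to -0.951 ± 0.136. Within 1 line and time, 3 against 3 libraries cannot give an exact p below 0.1, which was the value in every pair of groups but A2780cis at 12 h (exact p = 0.3). The ratio of CDC25A to WEE1 was higher after treatment by a mean of 0.20 (exact permutation test, p = 0.00122, adjusted p = 0.00184). Most of that came from A2780 at 6 h, where the shift was 0.52, while it was 0.12, 0.14 and 0.02 in A2780 at 12 h and in A2780cis at 6 h and 12 h. The ratio of CHEK1 to CHEK2 changed by -0.08 and did not pass the test (exact permutation test, p = 0.116). Without the first treated A2780cis library of 6 h it was -0.10 (exact permutation test, adjusted p = 0.0242).

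**Figure D3:**
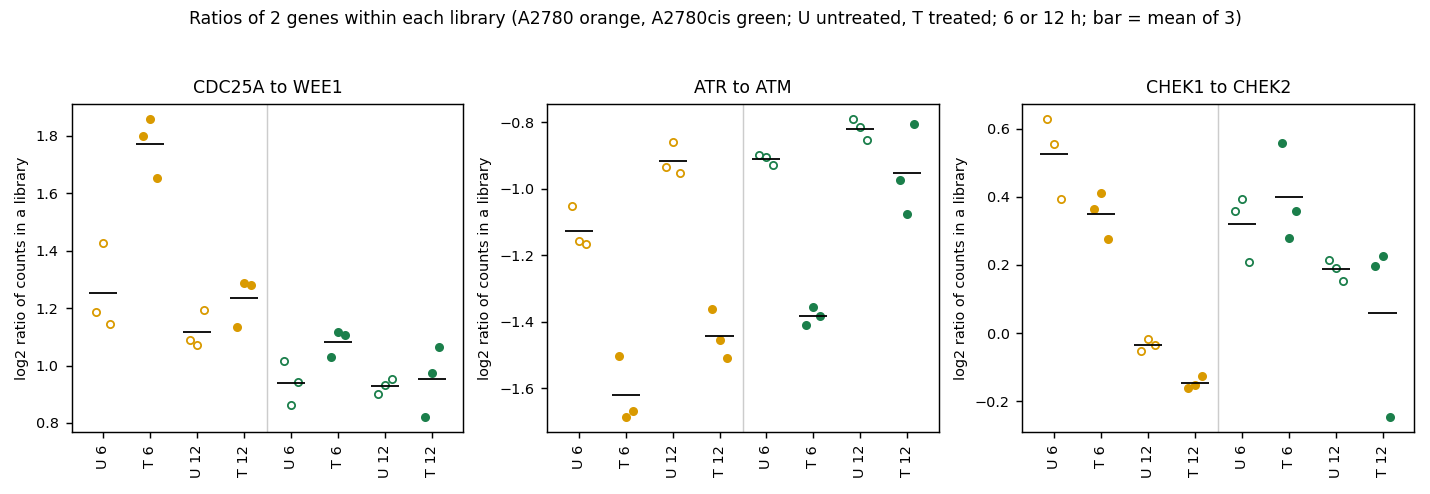
The log2 ratio of the counts of 2 genes in each library is plotted for the 8 groups (U untreated, T treated, with the hours), A2780 in orange and A2780cis in green, with a bar at the mean of 3 libraries. The ratio of ATR to ATM is lower in treated libraries, apart from A2780cis at 12 h where the groups overlap, and the ratio of CDC25A to WEE1 is highest in treated A2780 libraries of 6 h.

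Whether the response differed between the lines was tested as the log2 FC of A2780cis minus that of A2780. At 6 h CDC25A alone of the members passed (-0.64, SE 0.10, edgeR adjusted p = 0.000728), where 2.38% of all genes were lower in A2780cis and 0.692% higher. At 12 h CLSPN (-0.64, edgeR adjusted p = 0.00718), CDC25A (-0.47, edgeR adjusted p = 0.00156), TOPBP1 (-0.44, edgeR adjusted p = 0.0196) and WEE1 (-0.38, edgeR adjusted p = 0.0497) passed, all with the lower value in A2780cis, as did 14% of all genes. No member had a higher value in A2780cis by edgeR, where 9.7% of all genes did, against 1 (ATR) at an unadjusted p under 0.05 and 0 by DESeq2. The call of WEE1 was lost on leaving out any of 10 of the 12 libraries compared, 1 at a time (edgeR adjusted p from 0.054 to 0.148), the others being the first treated and the third untreated A2780cis library, and that of TOPBP1 without the third untreated A2780 library (-0.35, edgeR adjusted p = 0.0676) or the first untreated A2780cis library (-0.38, edgeR adjusted p = 0.0551). In a fit of the compared libraries alone TOPBP1 and WEE1 did not pass (edgeR adjusted p = 0.0601 and 0.123), nor did WEE1 without the filter on low counts (edgeR adjusted p = 0.107). For ATM, CHEK1, CHEK2, RAD17 and TP53BP1 the 95% interval of the difference at 12 h contained 0, with bounds between -0.47 and 0.40, so that differences within these bounds were not excluded.

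**Figure D4:**
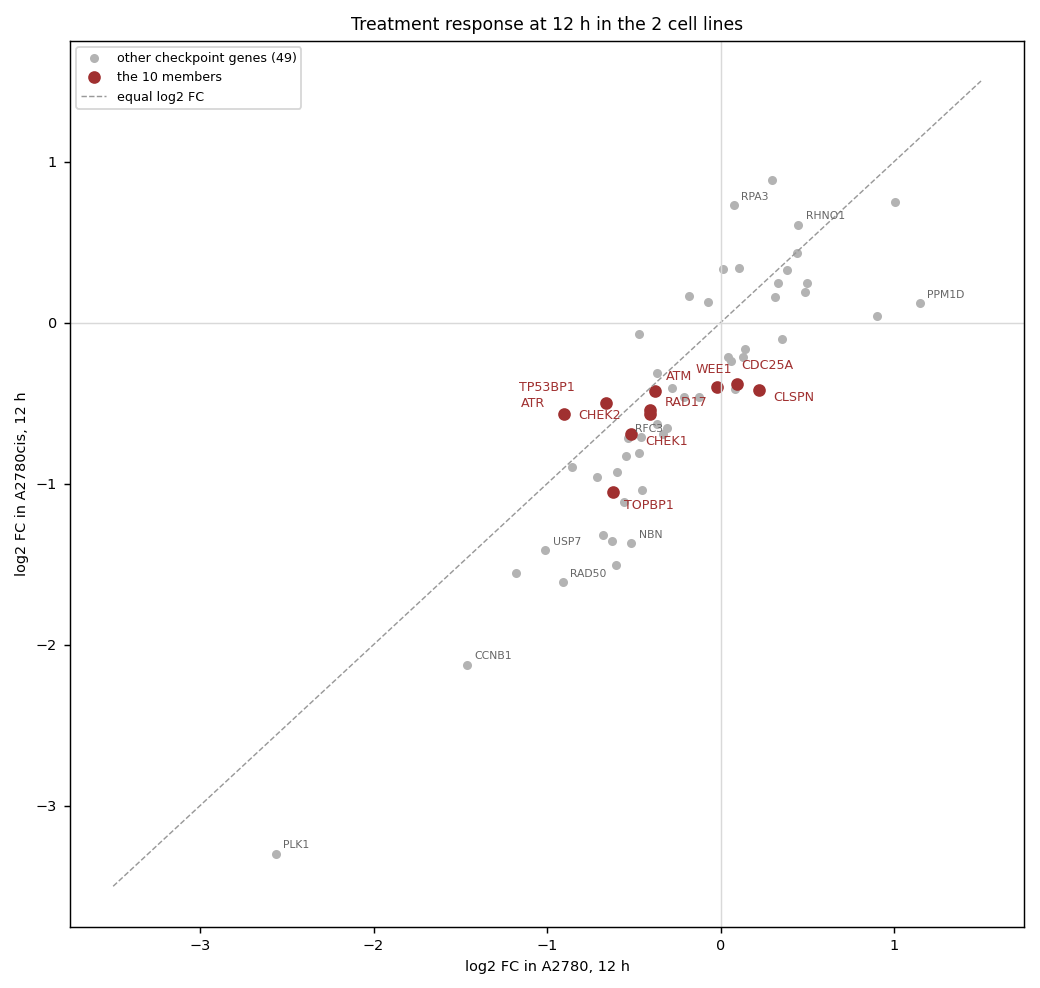
Each point is a gene, with its log2 FC after 12 h in A2780 on the horizontal axis and in A2780cis on the vertical axis, the 10 members in red and 49 other checkpoint genes in grey, and a dashed line where the values are equal. CLSPN, CDC25A, WEE1 and TOPBP1 lie below the line, and ATR at -0.90 and -0.57 lies above it.

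Whether the response grew was tested as the log2 FC of 12 h minus that of 6 h. TP53BP1 passed in both lines (-0.54 in A2780, edgeR adjusted p = 0.00177, and -0.50 in A2780cis, edgeR adjusted p = 0.00326). In A2780 it was the 1 member of 10 to pass, where 13% of all genes had a lower and 10.7% a higher log2 FC at 12 h. In A2780cis TOPBP1 (-0.73, edgeR adjusted p = 0.000397) and CLSPN (-0.51, edgeR adjusted p = 0.0287) passed as well, where 13.6% were lower and 10.3% higher. CLSPN lost its call without the third untreated (-0.38, edgeR adjusted p = 0.0991), the first treated (edgeR adjusted p = 0.0537) or the second treated A2780cis library of 6 h (edgeR adjusted p = 0.0505). The CLSPN call was also lost with library size alone (-0.49, edgeR adjusted p = 0.0587) and in a fit of the compared libraries alone (-0.52, edgeR adjusted p = 0.0574). TOPBP1 passed in A2780 too without the first treated library of 6 h (-0.41, edgeR adjusted p = 0.0437) or the third untreated library of 12 h (-0.44, edgeR adjusted p = 0.0242). CHEK1 passed in A2780cis without the first treated library of 12 h (-0.50, edgeR adjusted p = 0.00996). ATR, with -0.14 and 0.02, had most of its decrease by 6 h.

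Untreated A2780cis cells had 2 members higher and 2 lower than untreated A2780 cells at 6 h, against 25% and 22.9% of all genes. At 12 h 3 were higher and 2 lower, against 25.4% and 27.5% of all genes. ATR was higher in A2780cis at both times (log2 FC 0.40 and 0.27), and CDC25A (-0.28 and -0.38) and TP53BP1 (-0.37 and -0.53) were lower. CHEK2 was higher at 6 h (0.40, edgeR adjusted p = 0.00192), and CHEK1 (0.28) and CLSPN (0.36) were higher at 12 h. The counts of members were thus near the shares of all genes at both times. At 12 h the calls of ATR, CHEK1 and CLSPN were lost without the third untreated A2780 library (edgeR adjusted p = 0.175, 0.083 and 0.0776), those of ATR and CHEK1 without the first A2780cis library (edgeR adjusted p = 0.167 and 0.135), and that of ATR without the second library of A2780 (0.055) or A2780cis (0.0599). At 6 h CLSPN passed without the third A2780cis library (0.33, edgeR adjusted p = 0.0258). At 12 h the difference was largest for TP53BP1, whose untreated libraries of 12 h were at 225, 226 and 222 CPM in A2780 and 156, 156 and 154 CPM in A2780cis.

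The controls also differed between the harvests of 6 h and 12 h, and the cause was not tested. From 6 h to 12 h, ATM (-0.34), CHEK1 (-0.40) and TOPBP1 (-0.29) fell in untreated A2780 cells, where 10.3% of all genes fell, and none of the members rose, where 16.6% did (0 in edgeR also at an unadjusted p under 0.05, and 0 in DESeq2). In untreated A2780cis cells TOPBP1 (-0.40), ATM (-0.35), CHEK1 (-0.31), CDC25A (-0.28), RAD17 (-0.28) and WEE1 (-0.27) fell, where 21.9% fell and 18% rose. DESeq2 called CDC25A lower in A2780 as well (-0.21, adjusted p = 0.00426) and did not call RAD17 in A2780cis (-0.27, adjusted p = 0.055). RAD17 there also did not pass in edgeR with the size factors of DESeq2 (adjusted p = 0.0557). It was at an edgeR adjusted p of 0.243 without the filter on low counts and of 0.211 with the compared libraries alone. CHEK1, WEE1 and CDC25A did not pass in A2780cis in these last fits either. With library size alone as the scale, 1 member fell in A2780 (CHEK1) and CHEK2 rose (0.23, edgeR adjusted p = 0.0389), and none fell in A2780cis, where the median log2 FC of all genes was 0.06. Several of these calls also rested on a single library: without the third untreated library of 12 h, ATM and TOPBP1 were no longer past the threshold in A2780 (edgeR adjusted p = 0.142 and 0.183), nor were ATM, CHEK1, WEE1 and RAD17 in A2780cis (edgeR adjusted p = 0.0855, 0.127, 0.161 and 0.262). ATM and TOPBP1 in A2780 lost their call without the first (0.0983 and 0.0857) or the second untreated library of 6 h (0.0785 and 0.0826), and ATM without the second of 12 h (0.0745). In A2780cis the first of 6 h (CHEK1 0.062, RAD17 0.11), the second of 6 h (WEE1 0.157), the third of 6 h (CHEK1 0.0554, WEE1 0.0721, RAD17 0.198) and the second of 12 h (CHEK1 0.0564, WEE1 0.0697, RAD17 0.13) did the same.

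Genes were compared per kilobase of the canonical transcript, although reads were counted over all annotated exons. On that scale untreated A2780 cells of 6 h held most of TOPBP1 (34.8 ± 1.22 CPM per kb, SD, n = 3), CDC25A (33.5 ± 1.24) and CHEK2 (31.9 ± 1.499). TP53BP1 (20.8 ± 0.903), CHEK1 (20.6 ± 1.26), RAD17 (17.5 ± 0.9603) and WEE1 (15.1 ± 1.06) followed. The apical kinases ATM (11.7 ± 0.627) and ATR (8.496 ± 0.721) and the adaptor CLSPN (10.4 ± 0.257) were lowest. In treated A2780cis cells of 12 h the level per kilobase was 25.1 ± 2.95 for CHEK2, 17.4 ± 0.832 for CDC25A, 13.6 ± 1.18 for TOPBP1 and 6.34 ± 0.222 for ATR. The order depends on this length. Per kilobase of all annotated exonic bases, an alternative chosen after seeing the data, untreated A2780 cells of 6 h held most of CDC25A (31.1 CPM per kb), then TOPBP1 (27.3), TP53BP1 (16.6), CHEK1 (15.2), CHEK2 (13.1) and RAD17 (12.8), and CLSPN (9.23) lay above WEE1 (5.86), ATM (3.85) and ATR (2.55).

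The other genes of the checkpoint were taken from lists of known partners, 49 genes in all. In A2780 8 rose and 18 fell at 6 h, and 10 rose and 22 fell at 12 h, where 16% and 28.6% of all tested genes rose and 13.4% and 26.1% fell. In A2780cis 3 rose and 18 fell at 6 h, and 8 rose and 28 fell at 12 h, where 14.4% and 31% of all tested genes rose and 16.3% and 28.9% fell. Their median log2 FC was -0.04 and -0.21 in A2780 and -0.12 and -0.40 in A2780cis, in the order of time. Of the 11 cell cycle effectors, 9 fell in each line at 12 h, against 26.1% and 28.9% of all genes. Among them PLK1, the kinase that ends the checkpoint arrest, changed by -2.56 (A2780) and -3.30 (A2780cis) on the log2 scale, and CCNB1 (cyclin B1) by -1.46 and -2.12. Of the 13 break sensing and chromatin mediators, 7 fell in A2780 and 8 in A2780cis at 12 h, against the same 26.1% and 28.9%. RAD50 was at -0.91 and -1.61 and NBN at -0.51 and -1.37, both subunits of the MRN complex that recruits ATM.

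Of the 8 genes of the 9-1-1 clamp and its loader, 5 rose and 1 fell in A2780 at 12 h. In A2780cis 4 rose and 2 fell. Of all genes 28.6% and 31% rose and 26.1% and 28.9% fell in these comparisons. RHNO1, which binds the clamp and TOPBP1, rose in both (0.45 and 0.61), and RFC3, a loader subunit, fell in both (-0.54 and -0.72). Of the 5 ATR partners and single-strand binding proteins, 1 rose in A2780 at 12 h and none fell, against the same shares. In A2780cis RPA3 rose (0.73), while ETAA1, a second activator of ATR (-0.46), and 1 more fell. TIMELESS, which works with claspin at the fork, rose at 6 h in A2780 (0.21, edgeR adjusted p = 0.0499) and A2780cis (0.26) and fell in A2780cis at 12 h (-0.40), and its partner TIPIN did not pass the test in either line. Of the 7 turnover and shut-off genes, 5 fell in each line at 12 h, where 26.1% and 28.9% of all genes fell. USP7 fell in both (-1.01 and -1.41). PPM1D, a phosphatase that reverses checkpoint phosphorylation, rose in A2780 (1.09 at 6 h and 1.15 at 12 h) and was at -0.03 and 0.12 in A2780cis, not past the threshold, which the 12 h value passed with library size alone (0.23, edgeR adjusted p = 0.0466). Of the 3 chaperones of ATM and ATR, none passed in A2780 at 12 h, and TTI1 fell in A2780cis (-0.46) while TTI2 was at 0.17 and did not pass.

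Over the 24 libraries, which share their lines, treatments and times, the members closest to each other in log2 CPM were ATM and CHEK1 (Pearson r = 0.93), CHEK1 and TOPBP1 (0.91) and ATM and TOPBP1 (0.86). Among 12508 genes the closest to each member was RABL3 for CHEK1 (r = 0.99), AGPS for TOPBP1 (0.98), RNF13 for RAD17 (0.97), HEY1 for CDC25A (0.97), GPAM for ATM (0.96), ROBO1 for TP53BP1 (0.96), STOX1 for ATR (0.95), ZC3H7A for WEE1 (0.93), IVNS1ABP for CHEK2 (0.92) and EDEM3 for CLSPN (0.86). CLSPN thus had the least like neighbour. The identity of the closest gene changed with another scaling for ATR, TOPBP1, CLSPN, WEE1, CDC25A and TP53BP1.

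The members range from 19.8 kb (WEE1) to 146 kb (ATM) in genomic length. Across the 10 of them, which are not independent replicates, Spearman's rho of length with log2 FC was -0.32 and -0.60 in A2780 at 6 h and 12 h and 0.08 and -0.49 in A2780cis. Over 13881 protein-coding genes it was -0.35, -0.23, -0.40 and -0.38. The sign of rho was negative in all 4 comparisons over the protein-coding genes, and in 3 of 4 over the members. The values over the members were not tested.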

How the data were processed

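Total RNA of A2780 and A2780cis cells was sequenced in 24 libraries, 3 for each of 8 groups, which were taken from the sample labels. The authors deposited 1 table of expected counts for 63299 genes: reads were trimmed with Trimmomatic, aligned with STAR 2.5.2b to GRCh38.p7 and counted on exons with featureCounts, with fractions for reads of several alignments and with overlaps of several genes allowed. The strand setting was not given in the sources used here, and the labels describe single reads where the paper describes paired-end reads. Of the identifiers 56948 matched GENCODE release 44, and 20262 genes had no count.

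After rounding of the counts, edgeR 4.0.16 was run in R 4.3.3. Its filterByExpr, at a minimum count of 10 and a minimum total of 15, kept 20240 genes, which were normalized with TMM and fitted by quasi-likelihood, with 1 coefficient per group over all 24 libraries (16 residual degrees of freedom). Tests of genes are two-sided quasi-likelihood F tests of edgeR, and adjusted p-values follow Benjamini and Hochberg over all tested genes, with 0.05 as the threshold. Standard errors and 95% intervals come from the same fit. The authors' tool, DESeq2 (1.42.0 here), was an alternative. Ratios of genes were tested by exact permutation of the treatment labels within line and time (160000 permutations, smallest possible p 1.25e-05), after adding 0.5 to each count. Levels per kilobase use the length of the canonical transcript. Likeness was Pearson's r of log2 CPM (prior count 2) over genes with a mean of at least 2. Promoters are those of RefSeq. No molecular identifiers were used, so that intervals cover counting error and the spread between libraries only. The script was tested on simulated data. Figures were drawn with Python 3.11.15 and matplotlib 3.10.9.

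All members are named, and of each list of other checkpoint genes the 2 with the smallest p at 12 h, with the closest gene of each member. ENSG00000232335, NPAT, MAP1A and some other genes that overlap or adjoin a member were named for their position. Members and lists were chosen with earlier results of these data known. Alternatives were other scalings, another length per kilobase (chosen after seeing the data), no filter, unrounded counts, a block for the replicate number, fits of only the compared libraries, DESeq2, and each library left out in turn.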

Additional observations from a re-analysis of the deposited data

Results flagged for a closer look

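The response to treatment differed between A2780cis and A2780, by the test of the difference itself, for CDC25A at 6 h (-0.64 on the log2 scale, A2780cis minus A2780) and at 12 h (-0.47), and at 12 h for CLSPN (-0.64), TOPBP1 (-0.44) and WEE1 (-0.38). The WEE1 value lay just inside the threshold (edgeR adjusted p = 0.0497). Of the other checkpoint genes named, PPM1D differed at 6 h (-1.11, edgeR adjusted p = 8.19e-05) and at 12 h (-1.03, edgeR adjusted p = 1.8e-05). At 12 h NBN (-0.86), PLK1 (-0.74), RAD50 (-0.70), CCNB1 (-0.66), USP7 (-0.40) and TIMELESS (-0.38) had the lower value in A2780cis and RPA3 the higher one (0.65).

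The response differed between 6 h and 12 h for TP53BP1 in A2780 (-0.54) and in A2780cis (-0.50), and for TOPBP1 (-0.73) and CLSPN (-0.51) in A2780cis. The call of CLSPN was lost with library size alone, with the compared libraries alone and without some single libraries of 6 h. All groups hold 3 libraries, too few for a test of single outlying libraries.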

How the results depend on the processing

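Recomputed with other settings, 156 counts of members stayed within 1.5 times and 12 moved further, 6 of these with library size as the only scale. On that scale 2 members fell in A2780 at 6 h, 4 fell and 2 rose at 12 h, 1 fell and 1 rose between the controls of A2780 and 0 fell between those of A2780cis. Without the filter on low counts 2 members fell in A2780 at 6 h and 2 between the controls of A2780cis. In a fit of the compared libraries alone 1 member rose in A2780 at 12 h (CLSPN), 2 had a lower response in A2780cis than in A2780 at 12 h, and 1 fell between the controls of A2780cis. The counts of all genes called stayed within 1.5 times in all 84 refits with other settings. Of the values of single genes, 959 kept direction and call under other settings, 36 lost the call, 15 gained it and 26 changed sign, and with 1 library left out these were 1033, 52, 9 and 34. The cause was not tested; fits of fewer libraries have fewer samples by construction.

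Same-numbered libraries did not deviate together, with correlations of their deviations between -0.25 and 0.31 over the 4 comparisons of treatment, so the numbers were not taken to pair them. With the replicate number as a block, 2 members instead of 1 had a lower response at 12 h than at 6 h in A2780 (TOPBP1 joined), ATR passed between the controls of A2780cis, and the other counts of members stayed within 1.5 times.

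None of the values that changed sign was past the threshold, before or after the change. With library size alone the 12 h response of A2780 became 0.20 for WEE1, 0.097 for ETAA1, 0.21 for TIMELESS, 0.15 for TIPIN, 0.016 for TTI1 and 0.043 for TTI2 (log2 FC). On the same scale TP53BP1 was at 0.093 in A2780cis at 6 h, the change of the response with time in A2780 was 0.040 for ATM and 0.012 for ATR, the untreated lines at 6 h differed by -0.0014 for TOPBP1 and -0.073 for WEE1, and the controls of 12 h against 6 h by 0.015 for WEE1 in A2780 and by 0.093 for CLSPN and 0.058 for TP53BP1 in A2780cis. Without the filter TP53BP1 was at 0.023 in A2780cis at 6 h, and the change with time there was -0.060 for ATR and -0.028 for WEE1. The block gave 0.0025 for TP53BP1 in A2780cis at 6 h. The compared libraries alone gave 0.0044 for TIMELESS in A2780 at 12 h, 0.035 for TP53BP1 in A2780cis at 6 h, 0.0088 for TOPBP1 and 0.0062 for ATM in the difference of response between lines at 6 h and 12 h, -0.062 for WEE1 between the untreated lines at 6 h and 0.0079 for CLSPN between the controls of A2780cis. WEE1 between the untreated lines at 6 h was also at -0.011 with the size factors of DESeq2 and at -0.0087 in its Wald test.

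With 1 library left out at a time, the members called ranged from 1 to 2 higher and 2 to 5 lower in A2780 at 6 h, 2 to 4 lower for the difference of response at 12 h, 1 to 2 lower for the change with time in A2780, 1 to 3 and 2 to 7 lower for the controls of A2780 and A2780cis, and 0 to 3 higher in untreated A2780cis at 12 h. All genes called ranged from 3805 to 5987 in A2780 at 6 h, 357 to 642 for the difference of response at 6 h, 1846 to 5697 for the controls of A2780 and 4985 to 8421 for those of A2780cis. The lowest counts of members lower in A2780 at 6 h came without untreated replicates 1 or 2 or treated replicate 1, the single member higher without treated replicate 3, and for all genes 3805 without untreated replicate 1 and 3963 without treated replicate 1. For the controls of A2780, 1 member was left without untreated replicate 1 or 2 of 6 h or replicate 3 of 12 h, with 1846 genes without the first and 2324 without the last of these. For those of A2780cis, 3 and 2 members and, in the second case, 4985 genes were left without replicates 2 and 3 of 12 h. The 2 members for the difference of response at 12 h came without untreated 12 h replicate 3 of A2780 or 1 of A2780cis, and without these 0 and 1 members were higher in untreated A2780cis. For the change with time in A2780, 2 members came without treated 6 h replicate 1 or untreated 12 h replicate 3. The difference of response at 6 h had 357, 408, 391 and 372 genes without A2780 untreated replicate 1, A2780 treated replicate 2, A2780cis untreated replicate 2 and A2780cis treated replicate 2. The treated to untreated difference in the log2 ratio of CHEK1 to CHEK2 was -0.10 to -0.046, and passed without A2780cis treated 6 h replicate 1 alone (adjusted p = 0.0242, exact permutation test). Values that crossed 0 ranged from -0.15 to 0.037 (ATM) for the difference of response at 12 h and -0.12 to 0.015 (TOPBP1) at 6 h, from -0.071 to 0.091 (ATR) and -0.12 to 0.11 (WEE1) for the change with time in A2780cis, from -0.011 to 0.12 (CHEK2), -0.20 to 0.0073 (RAD17) and -0.10 to 0.051 (TOPBP1) between the untreated lines at 12 h, from -0.068 to 0.064 (RAD17) and -0.042 to 0.10 (WEE1) at 6 h, and from -0.21 to 0.028 (CLSPN) between the controls of A2780cis. For the response itself they were -0.051 to 0.19 (CLSPN) and -0.086 to 0.077 (TP53BP1) in A2780cis at 6 h, and -0.092 to 0.16 (RPA3), -0.062 to 0.018 (TIMELESS) and -0.094 to 0.022 (WEE1) in A2780 at 12 h.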
